A study of Mus musculus with 4 samples.

Results

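The genes described here belong to the unfolded protein response of the endoplasmic reticulum (ER), the compartment where secreted and membrane proteins are folded. They were taken from a list of 38 gene symbols, and 37 of these are rows of the 11111-gene expression table; Derl3, a derlin of the ER degradation machinery, is not in the table used here. Of the 37 genes, 21 form the chaperone branch (15 ER chaperones and disulfide isomerases and 6 genes of ER-associated degradation), 12 form the ATF4 branch (7 stress effectors and 5 enzymes of amino acid and one-carbon metabolism), and 4 encode sensors or transcription factors of the response.

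The data are RNA sequencing of bone marrow-derived macrophages of C57BL/6 mice, cultured for 7 days with a medium change on day 4. The cells of 1 group received a control morpholino (Ctrl MO) and those of the other received morpholinos that target Regnase-1 (Reg1-MOs). These antisense molecules pair with a chosen RNA and do not lead to its cleavage. Both were given at 2 µM with 6 µl/ml of the delivery peptide Endoporter for 24 h, and all cells of both groups were then stimulated with 10 ng/ml lipopolysaccharide (LPS), a component of bacterial outer membranes, for 4 h. Each group has 2 libraries, and it is not stated whether the libraries of a group stem from different mice or dishes, so the p-values reflect library-to-library spread, which may be only technical. The labels leave unclear if a Reg1-MOs library had a single targeting morpholino or a mixture. No unstimulated group was analysed here, so every value is a level under LPS.

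Misfolded proteins in the ER lumen are sensed by 3 transmembrane proteins. ATF6 is cleaved to release a transcription factor, IRE1 (encoded by Ern1) splices the Xbp1 mRNA into its active form, and both induce chaperones and degradation factors. PERK phosphorylates the translation factor eIF2alpha, which favours translation of Atf4, and ATF4 induces genes of amino acid supply and stress effectors such as Ddit3. ATF4 is also induced by other eIF2alpha kinases, for example when amino acids run short, so its targets and the chaperones can move apart. In macrophages, LPS signalling is known to engage IRE1 and XBP1 and to raise the demand for secretion of cytokines.

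Each library held between 23369753 and 25213695 reads in the table, with a median of 404 to 437 reads per gene. Reads per gene were recovered from the deposited log2 values, whose differences between groups are given below as log2 fold changes (Reg1-MOs over Ctrl MO). Zc3h12a, the gene of Regnase-1, was read 3407 and 3572 times with Ctrl MO and 7799 and 6753 times with Reg1-MOs. The log2 fold change was 1.10 (SE 0.07, n = 2 per group, adjusted p = 0.000401), so the targeted transcript was 2.14-fold higher in the Reg1-MOs libraries. Regnase-1 protein was not measured here, and these RNA counts do not show whether it was reduced. Across the table, 691 genes (6.22%) rose and 670 (6.03%) fell at an adjusted p under 0.05 (limma, Benjamini-Hochberg over all genes). All 10 macrophage markers checked (among them Csf1r, Adgre1 and Cd68) were in the table. Their summed counts per 1000000 reads (CPM) were 19553 and 19454 with Ctrl MO against 18443 and 18183 with Reg1-MOs. Of these markers, 1 rose (Cd68, log2 fold change 0.34) and 2 fell (Itgam, -0.67, and Lyz2, -0.27). Stromal and fibroblast markers moved far more: 10 of 13 were in the table and all 10 fell, with a median log2 fold change of -1.37 and 179 and 180 summed CPM with Ctrl MO against 78.1 and 87.0 with Reg1-MOs. None of the 10 stromal markers was at 0 reads in any library, and Lum, Pdgfra and Thy1 were not in the table. Plasma cells, in which much of this machinery is abundant, had 4 of 7 markers in the table with a median log2 fold change of -0.22. Of these, Sdc1 rose (0.59), while Jchain, Ighm and Igkc had values of -0.45, -0.34 and -0.09 and did not pass the test; Mzb1, Tnfrsf17 and Pou2af1 were not in it. Of the other lists, 0 of 9 neutrophil markers, 2 of 2 mast cell and basophil markers (Hdc and Kit, both lower), 0 of 1 dendritic cell marker and 0 of 1 lymphocyte marker passed the test. No erythroid marker was in the table. The lymphocyte marker, Cd79b, had a log2 fold change of -0.82 (adjusted p = 0.0695). Of the neutrophil markers, 7 were lower and 2 higher, with a median of -0.16. The part of these shifts in the values below was not tested, and in bulk RNA fewer cells of a type and less RNA per cell cannot be told apart.

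Many genes of the chaperone branch carry in their promoters the ER stress response element, which ATF6 and XBP1 bind together with the factor NF-Y. In its letters it is CCAAT, then 9 bases of any kind, then CCACG, read here on both strands of windows from 250 bases before to 50 after the annotated start of each gene (RefSeq, GRCm38.p6). It was found in 39 of 32851 windows of all genes (0.119%). Of the 38 listed genes, 33 had a window, and 9 of these held the element: Hspa5, Hsp90b1, Dnajc3, Pdia6, Calr, Canx, Creld2, Syvn1 and Derl3. The first 5 of these are the ones that fell in the comparison below, and the 250 bases before the start of each are shown for that reason, from 5′ to 3′ on the strand of the gene, with the element in capitals.
Hspa5 (GRCm38.p6, chr2:34771840-34772089, plus strand): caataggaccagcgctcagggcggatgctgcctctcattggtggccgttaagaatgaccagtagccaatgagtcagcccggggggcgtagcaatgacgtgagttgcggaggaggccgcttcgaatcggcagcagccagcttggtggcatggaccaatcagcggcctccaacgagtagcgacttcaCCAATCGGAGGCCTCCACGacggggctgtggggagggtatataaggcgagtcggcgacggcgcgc
Hsp90b1 (GRCm38.p6, chr10:86705445-86705694, minus strand): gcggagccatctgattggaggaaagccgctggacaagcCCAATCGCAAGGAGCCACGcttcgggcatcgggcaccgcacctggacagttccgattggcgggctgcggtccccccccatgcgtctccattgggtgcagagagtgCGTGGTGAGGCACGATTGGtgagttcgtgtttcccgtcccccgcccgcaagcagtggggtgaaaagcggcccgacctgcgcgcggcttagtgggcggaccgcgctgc
Dnajc3 (GRCm38.p6, chr14:118937682-118937931, plus strand): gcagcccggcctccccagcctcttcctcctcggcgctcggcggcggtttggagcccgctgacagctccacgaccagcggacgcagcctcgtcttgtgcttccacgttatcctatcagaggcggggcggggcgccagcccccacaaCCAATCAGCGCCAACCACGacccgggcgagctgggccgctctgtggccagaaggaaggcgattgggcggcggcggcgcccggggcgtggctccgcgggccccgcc
Pdia6 (GRCm38.p6, chr12:17266339-17266588, plus strand): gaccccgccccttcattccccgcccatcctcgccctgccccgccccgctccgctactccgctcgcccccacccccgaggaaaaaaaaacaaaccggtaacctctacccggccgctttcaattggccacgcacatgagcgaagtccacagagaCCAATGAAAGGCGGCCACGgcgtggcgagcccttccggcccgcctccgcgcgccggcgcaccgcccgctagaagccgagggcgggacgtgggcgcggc
Calr (GRCm38.p6, chr8:84846932-84847181, minus strand): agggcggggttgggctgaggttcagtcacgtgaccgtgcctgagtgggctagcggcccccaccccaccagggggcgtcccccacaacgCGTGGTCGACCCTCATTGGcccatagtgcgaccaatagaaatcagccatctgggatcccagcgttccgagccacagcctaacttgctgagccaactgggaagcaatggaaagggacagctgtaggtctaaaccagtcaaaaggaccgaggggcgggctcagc

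The elements differ in the bases between their 2 fixed ends, in their distance from the start and in their orientation. Written from CCAAT to CCACG, with the fixed ends in capitals, they read as follows.
Hspa5 (chr2:34772025-34772043, same strand as the gene): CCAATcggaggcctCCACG
Hsp90b1 (chr10:86705638-86705656, same strand as the gene): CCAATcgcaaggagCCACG
Hsp90b1 (chr10:86705533-86705551, opposite strand to the gene): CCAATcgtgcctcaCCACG
Dnajc3 (chr14:118937827-118937845, same strand as the gene): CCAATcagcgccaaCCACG
Pdia6 (chr12:17266491-17266509, same strand as the gene): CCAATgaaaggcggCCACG
Calr (chr8:84847075-84847093, opposite strand to the gene): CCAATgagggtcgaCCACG
Canx (chr11:50325800-50325818, same strand as the gene): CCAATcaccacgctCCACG
Creld2 (chr15:88819520-88819538, opposite strand to the gene): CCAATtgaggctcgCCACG
Syvn1 (chr19:6046532-6046550, same strand as the gene): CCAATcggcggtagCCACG
Derl3 (chr10:75893242-75893260, opposite strand to the gene): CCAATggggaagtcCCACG

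Distances are counted from the RefSeq start; the GENCODE genes of Hspa5, Hsp90b1, Pdia6 and Calr begin inside the printed windows. The first base of the element lies 65 bases before the start in Hspa5 and 44 bases before it in Syvn1, the closest of the set. The GENCODE gene of Hspa5 begins at chr2:34771970, so by that annotation its element lies inside the gene. Hsp90b1 holds 2 elements, which begin 212 and 107 bases before its start and point in opposite directions. In Calr, Creld2 and Derl3 the element lies on the opposite strand, so its reverse complement stands in the printed Calr window. None of the 9 genes with this element belongs to the ATF4 branch. A shorter relative, ATTGG followed by 1 base and CCACG, was found in Dnajb11 and Herpud1 and in 0.0365% of all windows, and the XBP1 core TGACGTGG was found in no listed gene against 0.676% of all windows. The C/EBP-ATF response element, which ATF4 binds, was searched as TGATGNAA on both strands; it was in Trib3, Chac1, Asns and Herpud1 and in 3.97% of all windows. No pair of the elements found in a listed gene overlapped. A match of letters is a description of the sequence, and no binding was measured here.

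The ER chaperones and disulfide isomerases were lower with Reg1-MOs. Of the 15 genes, 10 fell, 0 rose and 5 did not pass the test, with a median log2 fold change of -0.32 (range -0.63 to -0.12) against -0.03 over all genes of the table. In all 15 genes, both Reg1-MOs libraries lay below both Ctrl MO libraries, an arrangement found in 31.8% of all genes, while 6.03% of all genes fell by the test. Their summed reads made up 0.353% and 0.353% of the reads in the table with Ctrl MO against 0.300% and 0.294% with Reg1-MOs. The 10 stromal markers were lower in the same 2 libraries (median log2 fold change -1.37), and their part in these falls was not tested.

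**Figure D1:**
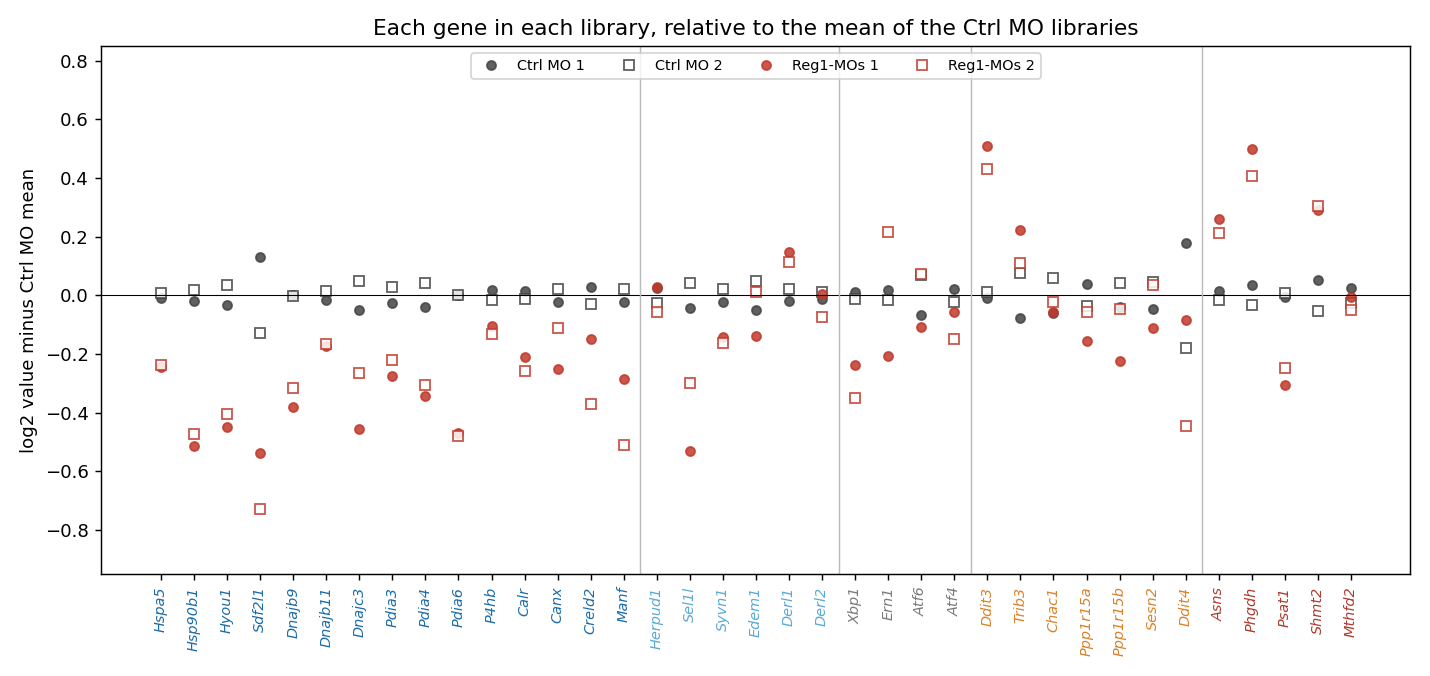
Deposited log2 value of each of the 37 genes in each of the 4 libraries, as the difference from the mean of the 2 Ctrl MO libraries; dark points are Ctrl MO, red points are Reg1-MOs, filled circles are replicate 1 and open squares replicate 2, and grey lines separate the roles. In the 15 chaperones and isomerases on the left both red points lie below both dark points, whereas in the 12 genes of the ATF4 branch on the right they lie on both sides of zero, with Ddit3 and Phgdh highest.

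Hspa5, which encodes BiP, the main Hsp70 chaperone of the ER lumen and the brake on all 3 sensors (ENSMUSG00000026864, GRCm38 chr2:34771970-34777547, plus strand), was the most abundant of the genes per length, at 309 and 308 RPKM (reads per kilobase of exon and 1000000 reads) with Ctrl MO against 269 and 261 with Reg1-MOs. Its reads were 32507 and 32823 with Ctrl MO against 28014 and 25789 with Reg1-MOs, and its log2 fold change was -0.24 (SE 0.06, adjusted p = 0.0404). The 2 libraries of each group were close to one another and the groups did not overlap; the difference was 1.18-fold. Under quantile normalization the log2 fold change of Hspa5 was smaller, -0.14 (adjusted p = 0.185). Its call also ended whichever library was left out, with log2 fold changes from -0.25 to -0.23. Hsp90b1, which encodes GRP94, the ER member of the Hsp90 family (ENSMUSG00000020048, chr10:86690209-86705509, minus strand), fell further. Its reads were 10053 and 10311 with Ctrl MO against 7241 and 6838 with Reg1-MOs; the log2 fold change was -0.49 (SE 0.06, adjusted p = 0.00347) or 1.41-fold lower.

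The listed genes that assist BiP fell with it or lay lower without passing the test. Sil1, an assistant of BiP outside the list, rose and is described below. Hyou1, a large Hsp70 relative that acts as a nucleotide exchange factor of BiP, was read 1884 and 1974 times with Ctrl MO and 1437 and 1359 times with Reg1-MOs, and fell by 0.43 on the log2 scale (SE 0.07, adjusted p = 0.0105). Sdf2l1, a luminal partner of ER DnaJ proteins that keeps unfolded clients soluble, had the largest fall of the 37 genes and also the largest SE among the genes that fell. Its reads were 782 and 653 with Ctrl MO against 500 and 402 with Reg1-MOs; the log2 fold change was -0.63 (SE 0.12, adjusted p = 0.0149). Among the DnaJ co-chaperones, which hand clients to BiP, Dnajc3 was read 1425 and 1525 times with Ctrl MO and 1093 and 1143 times with Reg1-MOs, and fell by 0.36 (SE 0.09, adjusted p = 0.0421). Dnajb9, known as ERdj4 and as a repressor of IRE1, had a log2 fold change of -0.35 (SE 0.10, adjusted p = 0.0557), close to that of Dnajc3, but missed the threshold of 0.05. Dnajb11 had one of -0.17 (SE 0.07, adjusted p = 0.139).

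Disulfide isomerases, which form and rearrange the disulfide bonds of folding proteins, were lower to different degrees. Pdia6 was the one whose deposited log2 values differed least within each group (standard deviation 0.00056 with Ctrl MO and 0.0071 with Reg1-MOs). Its reads were 3228 and 3227 with Ctrl MO against 2371 and 2159 with Reg1-MOs, and it fell by 0.47 (SE 0.06, adjusted p = 0.00487). Pdia4 was read 772 and 816 times with Ctrl MO and 636 and 598 times with Reg1-MOs, and fell by 0.32 (SE 0.08, adjusted p = 0.0441). Pdia3, the isomerase that works with calnexin and calreticulin on glycoproteins, was read 7166 and 7438 times against 6129 and 5836 times, and fell by 0.25 (SE 0.06, adjusted p = 0.0459). P4hb, the classical protein disulfide isomerase, moved least among the 15 genes, with a log2 fold change of -0.12 (95% interval -0.26 to 0.03, adjusted p = 0.259). Creld2, an ER stress-inducible protein with isomerase activity, had one of -0.26 (SE 0.11, adjusted p = 0.170) over 261 to 370 reads per library.

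The lectin chaperones of glycoproteins were also lower. Calr, which encodes calreticulin, was read 10123 and 9932 times with Ctrl MO and 8800 and 7805 times with Reg1-MOs, and fell by 0.24 (SE 0.06, adjusted p = 0.0483). Its membrane-bound relative Canx had a log2 fold change of -0.18 (SE 0.07, adjusted p = 0.140). Manf, a small secreted ER protein that binds BiP and is induced by ER stress, was read 1555 and 1601 times with Ctrl MO and 1317 and 1031 times with Reg1-MOs, and fell by 0.40 (SE 0.09, adjusted p = 0.0334).

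Of these 10 falls, those of Hsp90b1 and Pdia6 held with any 1 library left out (highest adjusted p = 0.0353 and 0.0357), whereas 6 ended without Ctrl MO replicate 1 (adjusted p 0.0790 to 0.401), 7 without Ctrl MO replicate 2 (0.111 to 0.453), 7 without Reg1-MOs replicate 1 (0.0566 to 0.123) and 6 without Reg1-MOs replicate 2 (0.0505 to 0.0746), with the log2 fold change negative each time. The falls of Hspa5, Pdia3, Pdia4 and Calr ended whichever library was left out. All 10 falls ended when the mean-variance trend was left out of limma (adjusted p 0.0585 to 0.166). Those of Hspa5, Pdia3 and Calr ended under quantile normalization and under equal library totals, as did that of Pdia4 under the latter (adjusted p 0.0501 to 0.185).

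**Figure D2:**
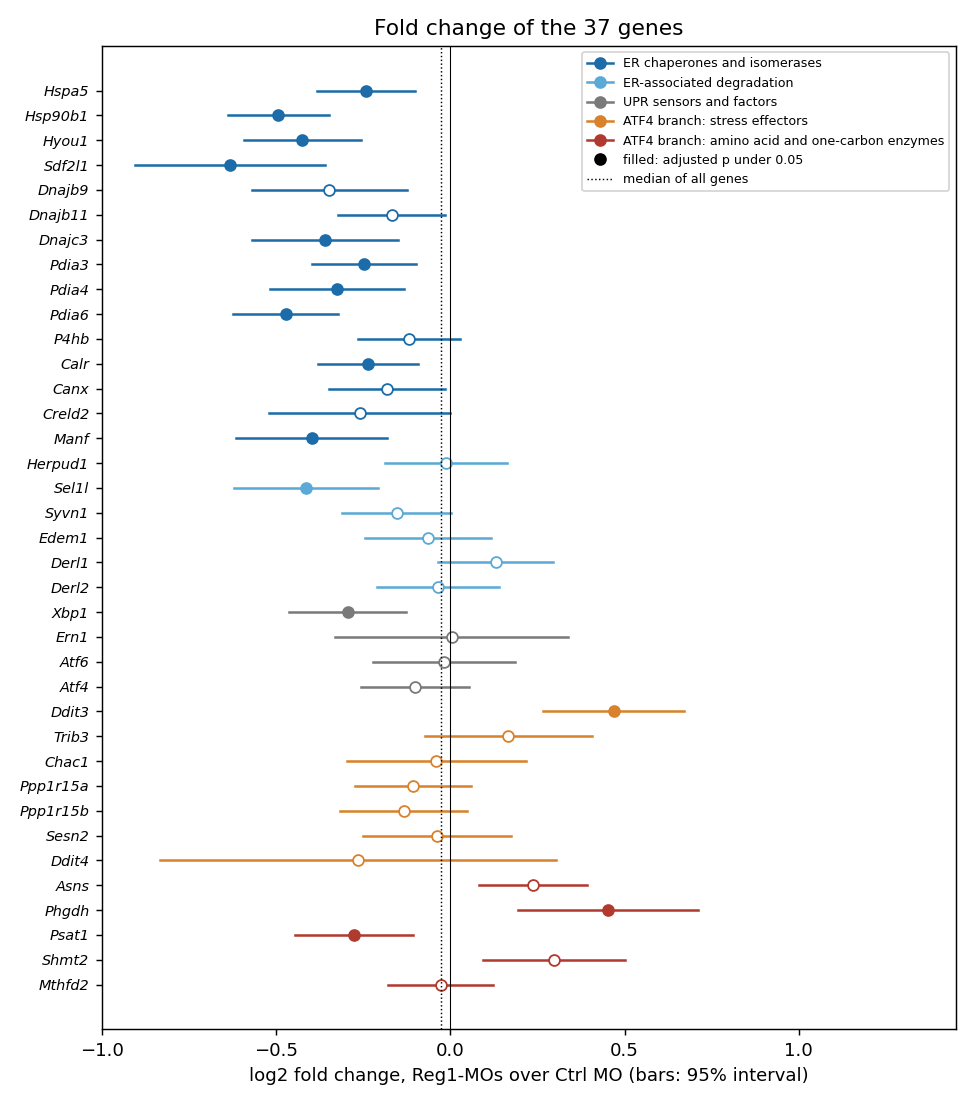
Log2 fold change, Reg1-MOs over Ctrl MO, of each of the 37 genes with its 95% interval from limma (n = 2 libraries per group), coloured by role, filled where the adjusted p is under 0.05, with a dotted line at the median of all genes. The 10 chaperones and isomerases that fell lie between -0.63 and -0.24, and the 2 genes that rose, Ddit3 and Phgdh, at 0.47 and 0.45.

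ER-associated degradation, which extracts misfolded proteins to the cytosol for the proteasome, was represented by 6 genes. Of these, 1 fell and 0 rose, against 6.03% and 6.22% of all genes, with a median log2 fold change of -0.05. The one that fell was Sel1l, the membrane adaptor that holds the ubiquitin ligase complex HRD1 together: its reads were 7768 and 8225 with Ctrl MO against 5624 and 6057 with Reg1-MOs; the log2 fold change was -0.41 (SE 0.09, adjusted p = 0.0244). The call of Sel1l ended when Ctrl MO replicate 2 (adjusted p = 0.109) or Reg1-MOs replicate 1 (0.0814) was left out and in the fit with no variance trend (0.131). Its partner Syvn1, the HRD1 ligase itself, had a log2 fold change of -0.15 (SE 0.07, adjusted p = 0.175), with both Reg1-MOs libraries below both Ctrl MO libraries. Edem1, which guides glycoproteins to degradation, Herpud1, a stress-inducible component of the HRD1 complex, and the derlin Derl2 lay near zero at -0.06, -0.01 and -0.03 (adjusted p 0.626 to 0.927). Derl1 was the single gene of the branch with a positive value, 0.13 (SE 0.07, adjusted p = 0.268; with equal library totals Herpud1 was positive too, at 0.0094), and both its Reg1-MOs libraries lay above both Ctrl MO libraries, as in 27.1% of all genes. Herpud1 is induced by both ATF6 and ATF4, and its 95% interval ran from -0.19 to 0.16.

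Among the sensors and factors, Xbp1 fell and the others did not pass the test. Xbp1 was read 2833 and 2783 times with Ctrl MO and 2420 and 2051 times with Reg1-MOs; the log2 fold change was -0.29 (SE 0.07, adjusted p = 0.0392). Both Reg1-MOs libraries were lower than both Ctrl MO libraries, but the call ended whichever library was left out (adjusted p 0.0547 to 0.271), with equal library totals (0.0540) and without the variance trend (0.138). The table counts all Xbp1 reads together, so the spliced form, which encodes the active factor, was not measured. Ern1, the sensor and splicing enzyme, was read 373 and 364 times with Ctrl MO and 324 and 399 times with Reg1-MOs; the 2 Reg1-MOs libraries lay on either side of the controls, and the log2 fold change was 0.00 (95% interval -0.33 to 0.34, adjusted p = 0.990). Atf6 was read 2648 and 2910 times with Ctrl MO and 2618 and 2718 times with Reg1-MOs, with a log2 fold change of -0.02 (95% interval -0.22 to 0.19) and overlapping groups. The sign of this value turned with equal library totals, at 0.0047.

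Atf4 was the most abundant transcript per length among the factors, at 110 and 105 RPKM with Ctrl MO against 107 and 97.3 with Reg1-MOs. Its reads were 6481 and 6272 with Ctrl MO against 6234 and 5363 with Reg1-MOs. The log2 fold change was -0.10 (95% interval -0.26 to 0.05, adjusted p = 0.352), although both Reg1-MOs libraries lay below both Ctrl MO libraries in the deposited values. ATF4 is controlled chiefly at translation, which RNA counts do not show.

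The stress effectors of the ATF4 branch had no common direction. Of 7 genes, 1 rose and 0 fell, with a median log2 fold change of -0.04; the shares of all genes that rose and fell were 6.22% and 6.03%. Ddit3, which encodes CHOP, a transcription factor that promotes cell death under lasting ER stress, was read 444 and 450 times with Ctrl MO and 646 and 561 times with Reg1-MOs. It rose by 0.47 on the log2 scale (SE 0.09, adjusted p = 0.0151), 1.38-fold, in the libraries in which Hspa5 was 1.18-fold lower. The call ended when either Ctrl MO library was left out (adjusted p = 0.0741 for replicate 1 and 0.0662 for replicate 2), when Reg1-MOs replicate 1 was left out (0.0718) and in the fit with no variance trend (0.0638). The other targets of ATF4 and CHOP in this group did not follow it past the threshold: Trib3, a pseudokinase induced by both, had a log2 fold change of 0.17 (SE 0.10, adjusted p = 0.323), and Chac1, an enzyme that degrades glutathione, one of -0.04 (SE 0.11, adjusted p = 0.842). Ppp1r15a and Ppp1r15b, the inducible and the constitutive subunits that direct dephosphorylation of eIF2alpha, had values of -0.11 (SE 0.07, adjusted p = 0.358) and -0.13 (SE 0.08, adjusted p = 0.300). Sesn2 and Ddit4, which restrain the growth kinase complex mTORC1, had values of -0.04 (SE 0.09, adjusted p = 0.812) and -0.27 (SE 0.24, adjusted p = 0.511); Ddit4 was the scarcest of the 37 genes, with 27 to 45 reads per library.

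The 5 enzymes of the ATF4 branch split: 1 rose and 1 fell, against 6.22% and 6.03% of all genes. Phgdh, the first enzyme of serine synthesis, rose from 189 and 180 reads with Ctrl MO to 265 and 228 with Reg1-MOs; the log2 fold change was 0.45 (SE 0.11, adjusted p = 0.0393). Psat1, the next enzyme of the same pathway, fell from 1428 and 1440 reads to 1179 and 1124, a log2 fold change of -0.28 (SE 0.07, adjusted p = 0.0484). The 2 consecutive steps of serine synthesis were thus called in opposite directions. In each the groups did not overlap. Of all genes, 27.1% had both Reg1-MOs libraries above both Ctrl MO libraries and 31.8% had both below. Both calls ended whichever library was left out (adjusted p 0.0517 to 0.369) and without the variance trend (0.0742 and 0.132), and that of Psat1 ended with equal library totals (0.0587). Asns, asparagine synthetase, had a log2 fold change of 0.24 (SE 0.07, adjusted p = 0.0593) and Shmt2, the mitochondrial serine hydroxymethyltransferase, one of 0.30 (SE 0.09, adjusted p = 0.0667), both just short of the threshold and with both Reg1-MOs libraries above both Ctrl MO libraries. Mthfd2, a mitochondrial folate enzyme that stands downstream of Shmt2, had one of -0.03 (SE 0.06, adjusted p = 0.807).

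Set side by side, the 2 branches differed in their counts. In the chaperone branch, 11 of 21 genes fell and 0 rose, with a median log2 fold change of -0.25, and 20 of 21 values were negative. Over all genes, 6.03% fell, 6.22% rose and 6043 of 11111 values were negative. In the ATF4 branch, 2 of 12 genes rose and 1 fell, with a median of -0.03 (0.013 without Ctrl MO replicate 2 and 0.006 without Reg1-MOs replicate 1), and 7 of 12 values were negative. The median difference from the Ctrl MO mean was -0.25 and -0.26 in the 2 Reg1-MOs libraries for the chaperone branch, and -0.03 and 0.01 for the ATF4 branch. The chaperone branch took 0.431% and 0.433% of the reads in the table with Ctrl MO against 0.369% and 0.366% with Reg1-MOs. The ATF4 branch took 0.0936% and 0.0928% with Ctrl MO against 0.0920% and 0.0928% with Reg1-MOs. Its total stayed within a narrow range while single genes went either way. That total is weighted to the most-read genes. Ppp1r15b, Mthfd2 and Ppp1r15a had means of 7824, 5015 and 3504.5 reads per library, against 525 for Ddit3 and 216 for Phgdh. The difference between the branches was described and not tested, since genes are not replicates of a condition. Over the branch, the count of 11 falls became 3 to 5 with any 1 library left out, 7 with equal library totals and 0 without the variance trend, and the 2 rises of the ATF4 branch became 0 or 1, 3 and 0.

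**Figure D3:**
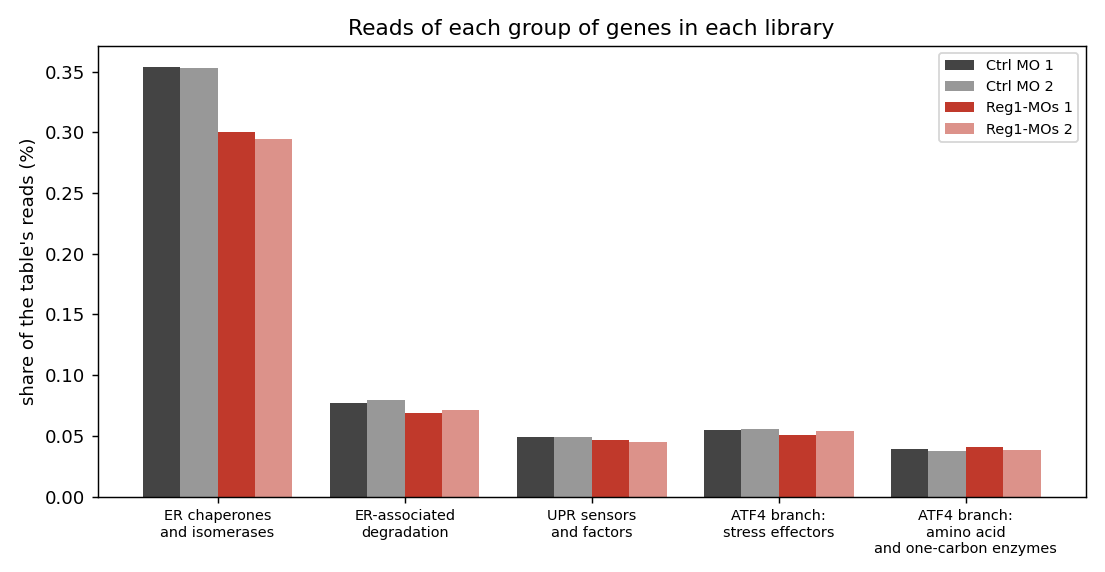
Summed reads of each group of genes as a percent of all reads in the table, with 1 bar per library and bars from 0. The chaperones and isomerases lie at 0.353% in both Ctrl MO libraries and at 0.300% and 0.294% with Reg1-MOs, the stress effectors of the ATF4 branch lie at 0.0547% and 0.0554% against 0.0512% and 0.0541%, and the enzymes (0.0374% to 0.0408%) overlap between the groups.

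Genes of the chaperone branch with and without an exact match to the ER stress response element were both among those that fell. Of its 8 genes in the table with the element, 5 fell, with a median log2 fold change of -0.25 (range -0.49 to -0.15). Of its 10 genes with a window and no exact match, 4 fell, with a median of -0.21 (range -0.63 to -0.01). Dnajb11 and Herpud1, which hold the shorter relative, are among these 10 genes, and near matches were not searched. The other 3 genes, of which 2 fell, had no window. Outside the list, 5 genes of the table carried the element (Adcy3, Alg12, Ero1b, Hnrnpa3 and Pan2). Of these, 1 fell (Hnrnpa3) and 0 rose. Ero1b, an ER oxidoreductase, went the other way, with a log2 fold change of 0.37 (SE 0.10, adjusted p = 0.0506), just short of the threshold. Of the 4 listed genes with a C/EBP-ATF element, none passed the test. Over all genes of the table, 6.22% rose and 6.03% fell. Of all 253 genes of the table with the C/EBP-ATF element, 20 rose and 15 fell, near those shares.

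Abundance and change were then set against each other. On the RPKM scale, mean levels ran from 287 for Hspa5, 129 for Calr, 105 for Atf4, 86.7 for Hsp90b1 and 86.1 for Pdia3 down to 3.54 for Phgdh, 1.82 for Ern1 and 0.839 for Ddit4. The genes that fell span most of this range, from Hspa5 to Hyou1 at 9.35, whereas the 2 that rose, Ddit3 at 12.5 and Phgdh, ranked 22 and 35 of the 37 genes. Calr and P4hb, at 129 and 70.2, are both abundant, and the first fell while the second did not pass the test.

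**Figure D4:**
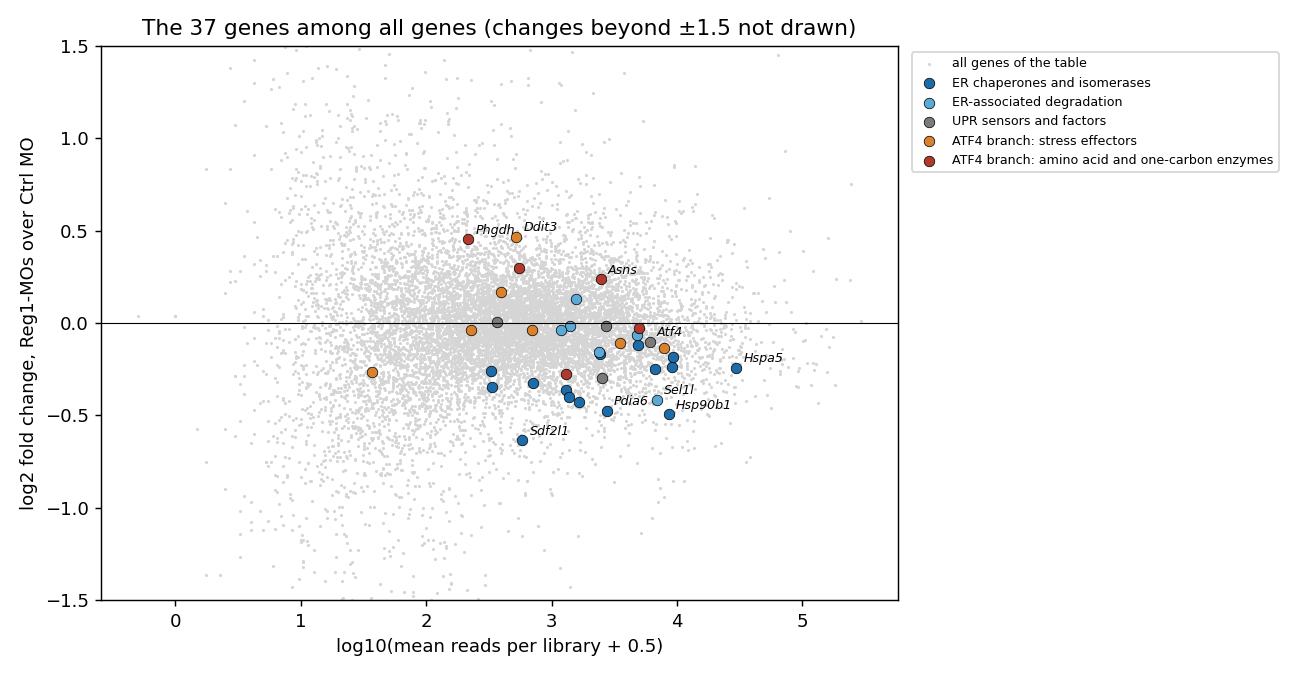
Log2 fold change, Reg1-MOs over Ctrl MO, of the 37 genes (coloured by role) and of all genes of the table (grey) against the mean reads per library on a log10 scale; changes beyond 1.5 in size are not drawn. Hspa5, with a mean of 29783 reads, lies farthest to the right of the coloured points at -0.24, and Ddit3 and Phgdh, with means of 525 and 216 reads, lie highest.

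Other genes of the same pathways were read from lists made for this purpose. Their counts stand against the 6.22% of all genes that rose and the 6.03% that fell. Nothing particular to a list is read from a few calls. Among other ER folding genes, 3 of 25 fell and 1 rose, with a median log2 fold change of -0.06. Uggt1, the glucosyltransferase that returns unfolded glycoproteins to calnexin and calreticulin, fell by 0.51 (SE 0.07, adjusted p = 0.00622). Txndc5, a disulfide isomerase, fell by 0.35 (SE 0.09, adjusted p = 0.0404). Serpinh1, the collagen chaperone HSP47, fell most, by 1.88 (SE 0.16, adjusted p = 0.00121), from 195 and 169 reads with Ctrl MO to 54 and 42 with Reg1-MOs; its client genes Col1a1 and Col1a2 are among the stromal markers that fell, and the part of that shift in its fall was not tested. Sil1, like Hyou1 a nucleotide exchange factor of BiP, rose by 0.36 (SE 0.09, adjusted p = 0.0412), so that the 2 exchange factors were called in opposite directions. The calls of Sil1 and Txndc5 ended whichever library was left out, with a highest adjusted p of 0.231 and 0.220.

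Among genes of protein entry into the ER and of its traffic, 1 of 29 fell and 1 rose, with a median of -0.04. Serp1, also called RAMP4, a small translocon protein induced by XBP1, fell from 16139 and 16789 reads with Ctrl MO to 11126 and 11092 with Reg1-MOs; the log2 fold change was -0.53 (SE 0.07, adjusted p = 0.00400), a fall that held with any 1 library left out. Sec11c, a catalytic subunit of the signal peptidase, rose by 0.36 (SE 0.09, adjusted p = 0.0489), a call that ended whichever library was left out (highest adjusted p = 0.416). Ssr1, a translocon-associated subunit, had a value of -0.22 (SE 0.07, adjusted p = 0.0884). Among other degradation genes, 1 of 25 fell and 0 rose, with a median of 0.02. That gene was Herpud2, the relative of Herpud1, at -0.44 (SE 0.07, adjusted p = 0.0102; highest adjusted p with 1 library left out 0.0674), while Edem3 had -0.49 (SE 0.15, adjusted p = 0.0695) and Aup1 0.21 (SE 0.07, adjusted p = 0.0898).

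Among other sensors, proteases and factors of the response, 2 of 21 fell and 0 rose, with a median of -0.04. These were Wfs1, an ER membrane protein that restrains ATF6, at -0.53 (SE 0.11, adjusted p = 0.0256), and Creb3l1, an ATF6-like transmembrane factor that drives collagen genes, at -0.69 (SE 0.15, adjusted p = 0.0282). The call of Wfs1 ended whichever library was left out, whereas that of Creb3l1 held in 3 of the 4 fits that left out 1 library. Ufl1, a protein ligase at the ER membrane, had a value of -0.40 (SE 0.11, adjusted p = 0.0611). Eif2ak3, which encodes PERK, had a log2 fold change of -0.18 (adjusted p = 0.425).

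Among eIF2alpha kinases and factors of the ATF4 network, 3 of 22 rose and 1 fell, with a median of 0.04: Jdp2, a bZIP repressor, rose by 0.70 (SE 0.07, adjusted p = 0.00177), Cebpa by 0.56 (SE 0.11, adjusted p = 0.0187) and Gadd45a by 0.39 (SE 0.09, adjusted p = 0.0346), and Eif2ak2, the kinase PKR that senses double-stranded RNA, fell by 0.34 (SE 0.08, adjusted p = 0.0348). Among other genes of amino acid transport and synthesis, 3 of 16 rose and 0 fell, with a median of 0.11. Slc3a2 and Slc7a11, the heavy and the light chain of the cystine importer, rose by 0.35 (SE 0.06, adjusted p = 0.0135) and 0.33 (SE 0.08, adjusted p = 0.0428), and Got1, the cytosolic aspartate aminotransferase, by 0.52 (SE 0.09, adjusted p = 0.0132). Psph, which completes serine synthesis after Psat1, had a value of -0.07 (adjusted p = 0.817). Of these 7 calls, that of Jdp2 held with any 1 library left out, and that of Gadd45a ended whichever library was left out. The rest held in only 1 or 2 of the 4 fits that left out 1 library.

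Cytosolic aminoacyl-tRNA synthetases, which charge tRNAs and several of which are ATF4 targets, had the highest median of these 7 lists, 0.16. Of 19 genes, 2 rose and 0 fell, and in 15 of 19 both Reg1-MOs libraries lay above both Ctrl MO libraries, against 27.1% of all genes. Sars, the seryl-tRNA synthetase, rose from 1137 and 1087 reads with Ctrl MO to 1807 and 1700 with Reg1-MOs; the log2 fold change was 0.70 (SE 0.07, adjusted p = 0.00205), a rise that held with any 1 library left out. Dars, the aspartyl-tRNA synthetase, rose by 0.30 (SE 0.08, adjusted p = 0.0448), a call that ended whichever library was left out (highest adjusted p = 0.322), and Aars, the alanyl-tRNA synthetase, had a value of 0.23 (SE 0.06, adjusted p = 0.0528). With no variance trend in the fit, the calls of Serpinh1 (adjusted p = 0.0284), Jdp2 (0.0435), Cebpa (0.0482) and Sars (0.0435) held among the genes of these 7 lists that are called above, and the others ended, with adjusted p from 0.0529 for Wfs1 to 0.158 for Slc7a11.

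**Figure D5:**
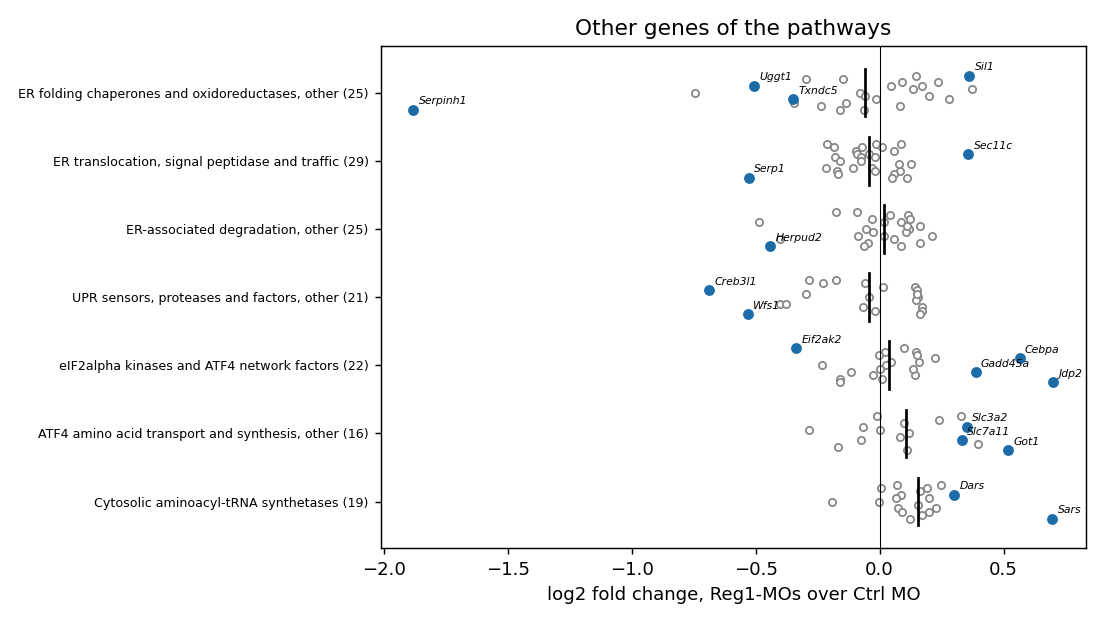
Log2 fold change, Reg1-MOs over Ctrl MO, of the other genes of the pathways, 1 point per gene, filled and named where the adjusted p is under 0.05, with a black line at the median of each list and the number of genes in the table in brackets. Medians run from -0.06 for other ER folding genes to 0.16 for the synthetases, and the lowest point is Serpinh1 at -1.88.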

How the data were processed

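The labels describe poly(A)-selected, strand-specific libraries sequenced on a NextSeq 500. Build mm10 and the programs HISAT2 1.6.3, cutadapt and FastQC are named in the submitters' processing notes; not given in the sources used here is how reads were counted, filtered and scaled. The authors deposited log2 values, 1 per gene and library. Each equalled the log2 of a read count plus 0.5, scaled by library: whole reads came back within 0.01 for 100% of the genes. The deposited column names of the treated libraries, MO1 and MO2, are also the names of the 2 morpholinos, and whether each library received 1 or both is not settled; they were treated as replicates 1 and 2.

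The deposited values of all 11111 genes were tested with limma 3.58.1 (R 4.3.3, statmod 1.5.0), using a moderated two-sided test with a mean-variance trend, group as the only term and Benjamini-Hochberg adjustment; the threshold was 0.05, and 2 residual and 5.47 prior degrees of freedom entered each test. SE is the moderated standard error. "Fell" and "rose" are used for genes past the threshold. Exon lengths and gene positions come from GENCODE M21 (GRCm38, the assembly of mm10), in which 11088 of the identifiers were found; levels per length (RPKM) and summed marker levels (CPM) are scaled to the reads in the table. The script was tested on simulated data. The alternatives were quantile normalization, equal library totals, no variance trend, a mean of at least 50 reads, an offset of 8 reads, limma-voom weights, a replicate block, counting the factors with their branch and leaving out each library. The gene list, its roles and the pathway lists were chosen with earlier results of these data known. All listed genes in the table are named; in each pathway list the 3 genes with the smallest p are named, and Sil1, Eif2ak2, Eif2ak3, Psph and the 5 other genes with the stress element were named after their values were seen. Those named are a part of each list, and 1 further gene was left out of the lists.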

Additional observations from a re-analysis of the deposited data

How the results depend on the processing

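The count of falls in the chaperone branch, 11, became 7 with equal library totals, 0 without the variance trend and 3 to 5 with 1 library left out; it was 8 with quantile normalization, and its count of rises was 0 throughout. The rises of the ATF4 branch, 2, became 0 without the variance trend and 0 to 1 with 1 library left out, and its 1 fall became 0 with equal library totals, without the trend and with any 1 library left out (0 to 0). Over all genes, the 691 rises and 670 falls became 195 and 182 without the trend, and 249 to 530 and 258 to 860 with 1 library left out. Why these calls end without the trend was not tested. The median log2 fold change of the chaperone branch, -0.248, was -0.197 with quantile normalization, -0.226 with equal library totals and -0.249 to -0.260 with 1 library left out. That of the ATF4 branch, -0.034, was -0.011 with equal library totals, -0.036 to 0.013 with 1 library left out (0.013 without Ctrl MO replicate 2 and 0.006 without Reg1-MOs replicate 1), so its sign is not settled. The median of all genes was -0.026 as deposited, -0.007 with quantile normalization and -0.003 with equal totals.

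Of the 15 calls, quantile normalization kept 12, equal totals 9 and the other settings with all 4 libraries 15, except for 0 without the trend; Hsp90b1 and Pdia6 were the 2 kept in each fit that left out 1 library. Among the 37 genes, the sign changed only in genes with no call: with equal totals Herpud1 was 0.0094 and Atf6 0.0047, and with voom weights Ern1 was -0.0011. With 1 library left out, positive values were reached by Herpud1 (-0.056 to 0.029), Edem1 (-0.138 to 0.011), Derl2 (-0.0746 to 0.0049), Atf6 (-0.108 to 0.071), Chac1 (-0.099 to 0.020) and Sesn2 (-0.112 to 0.034), and Ern1 ran from -0.209 to 0.216.

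The replicate numbers are not stated to pair the samples, and the deviations of replicate 1 from its group mean correlated across the 11111 genes, which are not independent, at r = 0.096 between the groups. With a replicate block, the counts over all genes were 1532 rises and 1891 falls; the chaperone branch had 15 falls and 0 rises and the ATF4 branch 4 rises and 1 fall. With 2 libraries a group, their number limits the precision; Ddit4, with 27 to 45 reads, is limited by depth as well.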
